A study of Mus musculus with 8 samples.

Results

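The endoplasmic reticulum (ER) chaperones and the genes of the unfolded protein response were examined in whole retina as 37 genes chosen by name from the 17500 genes of the table. They comprised 12 chaperones and cochaperones of the ER lumen or membrane, 5 folding enzymes, 8 stress sensors and transcription factors, 10 genes of ER-associated degradation (ERAD) and 2 subunits of the translocon. All 37 were in the table and all passed the filter on low counts, with at least 137 counts in every mouse, so none was kept through 1 group alone.

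Retinas came from 8 C57BL/6J mice aged 6 months, with 1 library per mouse: 4 control mice (M833, M894, M896 and M898) and 4 Rbfox2 KD mice (M893, M901, M902 and M909). Rbfox2 encodes an RNA-binding protein that regulates alternative splicing. The Rbfox2 KD mice were Rbfox2 fl/fl and carried a tamoxifen-dependent Cre recombinase that is expressed broadly across cell types. The deletion was therefore not limited to the retinal neurons that express Rbfox2, nor to the retina. Controls were age-matched animals heterozygous for the floxed allele (Rbfox2 fl/+). The methods describe a short course of tamoxifen, or of corn oil as vehicle, by gavage, and the mice were examined about 4 months later. Mice given tamoxifen were housed singly. Which of these, if either, the sequenced controls received is not stated in the methods. The labels carry the same note on tamoxifen for every sample, and the sources do not say whether the sequenced controls carried Cre, so that the effects of genotype, Cre and tamoxifen cannot be told apart. Rbfox2 itself was 144, 149.8, 157 and 148 CPM in the controls (CPM, the scaled share of a library's counts taken by a gene) and 53.9, 58.9, 53.6 and 59.4 CPM in the Rbfox2 KD mice. That is a log2 fold change of -1.41 (edgeR adjusted p = 5.51e-07), and the groups did not overlap.

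The ER folds secreted and membrane proteins with the help of lumenal chaperones, lectins that bind sugar chains, and protein disulfide isomerases. Misfolded proteins are sensed by 3 transmembrane proteins. ATF6 is cut in the Golgi to release a transcription factor that drives chaperone genes, IRE1 (encoded by Ern1) splices the Xbp1 mRNA, and PERK (encoded by Eif2ak3) phosphorylates eIF2α and thereby favours the translation of ATF4. In the retina this system is best known from rod photoreceptors, which make large amounts of rhodopsin in the ER and degenerate when mutant rhodopsin misfolds. Counts per gene do not show the cutting of ATF6, the splicing of Xbp1 or the phosphorylation of eIF2α. In bulk tissue, a change in the number of cells of a type and a change in RNA per cell cannot be told apart.

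The libraries held 160630226 to 211283591 counted fragments. M901 and M902 stood apart from the other 6 mice on the first principal component, which took 50.03% of the variance. These mice had 1439.7 and 1739 CPM of Xist, the RNA of the inactive X chromosome, against 1.71 to 2.22 CPM in the other 6, and 0.221 to 0.316 CPM of the Y-linked Ddx3y against 60.5 CPM or more in the others. The labels give no sex. All 4 controls were thus in the low-Xist class. Best2 and Slc13a4, genes of the ciliary epithelium, were at 0.1504 to 1.48 CPM in M901 and M902 and at 4.14 to 21.9 CPM elsewhere. Otx1, Wfdc1 and Slc4a4 of the same list were also lowest in these mice. Aqp1, the most abundant of the list, was not, at 181 and 189 CPM against 169 to 204 CPM elsewhere. M909 stood apart on the second component (18.72%), with 80.5 CPM summed over 6 surface epithelium genes against 1.17 to 7.93 CPM in the other mice. Values without M901 and M902 are therefore given beside the results that rest on them. The defining rod markers were abundant in every mouse, with 57965 to 62332 CPM summed over 6 genes in controls and 60336 to 65497 CPM in Rbfox2 KD mice. All 6 had log2 fold changes above 0, and 3 were higher at an unadjusted p under 0.05, with and without M901 and M902. Cone markers summed to 808 to 820.5 CPM in controls and to 861 to 985 CPM in Rbfox2 KD mice. The cone genes did not move together, with 1 higher and 1 lower at the unadjusted threshold. Opn1sw was 333 to 388 CPM in controls and 384 to 474 CPM in Rbfox2 KD mice. The lower gene, Opn1mw, was 92.6 to 117 CPM and 78.3 to 106 CPM. The 5 horizontal cell markers summed to 236 to 265 CPM in controls and 223 to 235 CPM in Rbfox2 KD mice, with Calb1 at 73.9 to 78.0 CPM and 56.3 to 60.5 CPM. These genes also differed in direction, with 1 lower (Calb1) and 1 higher (Lhx1) at the unadjusted threshold. Calb1 alone of the 5 was also past an adjusted p of 0.05 (edgeR adjusted p = 0.00341). Lhx1 was 7.53 to 8.87 CPM in controls and 8.86 to 10.4 CPM in Rbfox2 KD mice. Prox1, the most abundant, was 137 to 159 CPM and 141 to 152 CPM. Of the 6 Müller glia markers, 2 were lower, with sums of 5897 to 6584 CPM in controls and 5253 to 5934 CPM in Rbfox2 KD mice. The lowest sums were those of M901 and M902. Without these mice 1 gene was lower, and the median log2 fold change went from -0.10 to 0.0082. Ganglion cell markers were uneven within both groups. Their 6 genes summed to 547 CPM in control M833 and to 839 to 871 CPM in the other controls. M909 was at 690 CPM, and the other Rbfox2 KD mice were at 795 CPM or more. At the unadjusted threshold, 0 of these 6 genes were higher and 0 lower. Of the 6 bipolar cell markers, 2 were lower and 0 higher, and of the 6 vessel markers, 3 were lower and 0 higher. Without M901 and M902, 1 bipolar marker, 1 vessel marker and 0 cone markers were lower. Of all genes tested, 6.42% were higher and 6.87% lower at this threshold, and 3.55% were higher without M901 and M902. The part that cell composition plays in the results was not tested.

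Many chaperone promoters carry the ER stress response element (ERSE), which ATF6 and XBP1 bind together with the factor NF-Y. It reads CCAAT, then any 9 bases, then CCACG. A related element, ERSE-II, reads ATTGG, any 1 base, CCACG. RefSeq promoters (GRCm38.p6, the assembly that mm10 names; 250 bases before to 50 after the start site) were found for 32 of the 37 genes, and both strands were searched. An ERSE was present in 9 of these 32 genes (28.1%) and in 39 of 32851 promoters of the same length in the mouse (0.119%). ERSE-II was present in Herpud1 and Dnajb11, and in 12 promoters (0.0365%) of the whole table. Together, 11 genes (34.4%) held either element, against 0.155% of all promoters. The matches that lie before the start site are printed with their flanks, to show how alike the element is from gene to gene. Capitals mark the match, a sequence beginning CGTGG holds the ERSE on its reverse strand, and each run reads 5′ to 3′ along the gene's strand.

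Hspa5, chr2:34772015-34772053, plus strand: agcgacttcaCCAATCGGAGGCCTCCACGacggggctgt

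Calr, chr8:84847065-84847103, minus strand: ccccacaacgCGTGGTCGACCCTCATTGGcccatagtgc

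Hsp90b1, chr10:86705523-86705666, minus strand, with 2 elements: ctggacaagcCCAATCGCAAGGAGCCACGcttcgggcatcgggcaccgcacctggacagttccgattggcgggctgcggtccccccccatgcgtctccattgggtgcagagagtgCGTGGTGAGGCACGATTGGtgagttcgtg

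Pdia6, chr12:17266481-17266519, plus strand: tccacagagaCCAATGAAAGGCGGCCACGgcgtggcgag

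Canx, chr11:50325790-50325828, minus strand: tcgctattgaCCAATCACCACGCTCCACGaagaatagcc

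Creld2, chr15:88819510-88819548, plus strand: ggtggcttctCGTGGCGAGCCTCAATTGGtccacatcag

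Syvn1, chr19:6046522-6046560, plus strand: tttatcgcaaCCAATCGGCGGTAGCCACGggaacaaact

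Dnajc3, chr14:118937817-118937855, plus strand: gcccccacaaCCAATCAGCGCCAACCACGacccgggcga

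Derl3, chr10:75893232-75893270, plus strand: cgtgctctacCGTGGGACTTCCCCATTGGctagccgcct

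Herpud1, chr8:94386367-94386397, plus strand, ERSE-II: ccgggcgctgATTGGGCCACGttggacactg

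The elements in these runs lay between positions -212 and -26 relative to the start site. The unfolded protein response element, TGACGTGG, was in 0 of the 32 genes and in 0.676% of all promoters. The amino acid response element bound by ATF4, TGATGNAA, was in Trib3 and Herpud1 and in 3.97% of all promoters. No 2 matches in a member's promoter overlapped. A missing match says only that these letters are not in this window.

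At an unadjusted p under 0.05 in the edgeR quasi-likelihood test, 17 of the 37 genes (45.9%) were higher in Rbfox2 KD retinas and 0 were lower, against 6.42% of all 16797 genes tested that were higher and 6.87% that were lower. By role, 9 of the 12 chaperones, 3 of the 5 folding enzymes, 3 of the 8 sensors and transcription factors, 2 of the 10 ERAD genes and 0 of the 2 translocon subunits were higher, and the difference between roles was not tested. None of the 37 passed a false discovery rate of 0.05 in this test, which called 11 genes in all (0.0655%), and the lowest adjusted p was 0.0837, for Calr and Hsp90b1. DESeq2 called 7 of the 37 at the same rate (Hspa5, Hsp90b1, Calr, Dnajb11, Pdia6, Atf6b and Ubqln4) and 2.74% of all genes. The edgeR likelihood ratio test called 3 (Hsp90b1, Calr and Pdia6) and 0.976% of all genes, and limma-voom called 0. The median log2 fold change was 0.07 over the 37 genes and 0.0016 over all genes tested, and 30 of the 37 were above 0. Over the 17 chaperones and folding enzymes the median was 0.18, and 12 were higher at the unadjusted threshold. Without M901 and M902, 7 of the 37 genes remained higher (Hspa5, Hsp90b1, Calr, Canx, Dnajb11, Pdia3 and Pdia6) against 3.55% of all genes, and the median was 0.04. All 7 were chaperones or folding enzymes. Leaving out control M896 alone, or M901 alone, left 10 higher genes. The shares of all genes higher in these fits are not given, so a loss particular to the 37 cannot be told from a general loss of calls.

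**Figure D1:**
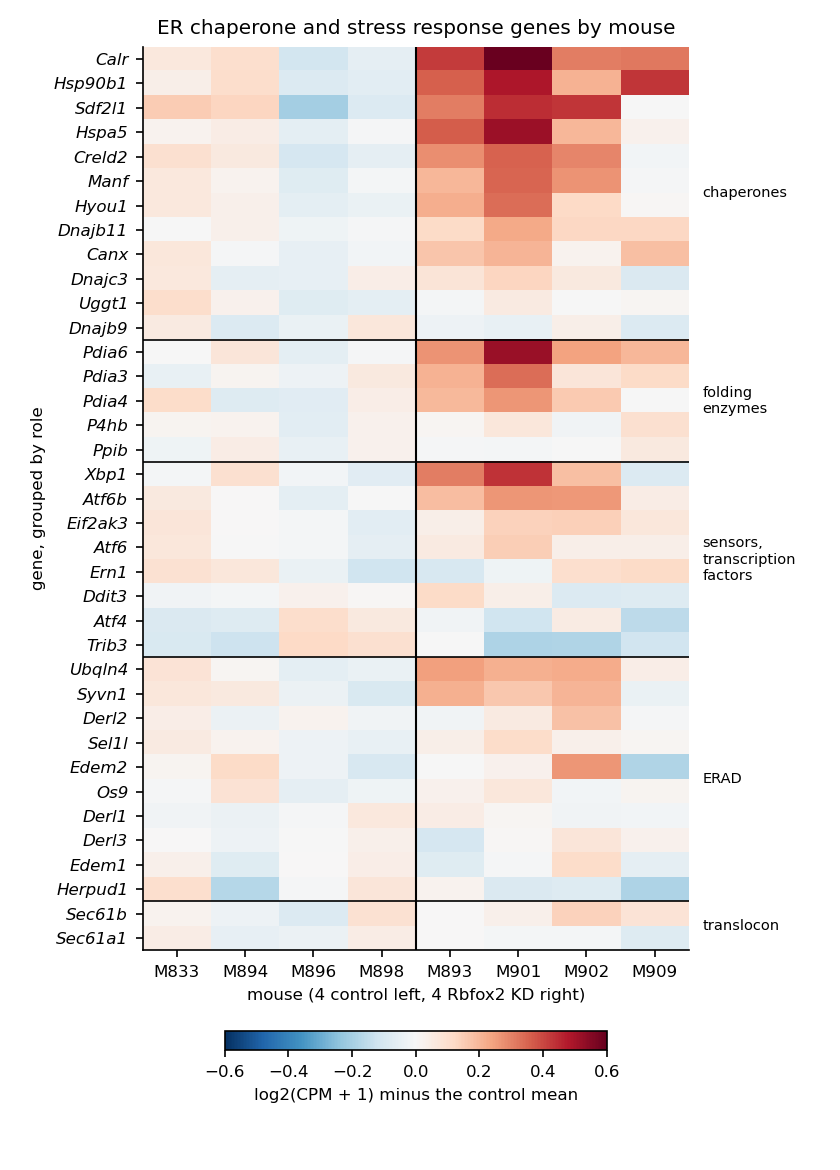
Each of the 37 genes (vertical axis, grouped by role) in each of the 8 mice (horizontal axis), coloured by log2(CPM + 1) minus the mean of the 4 controls. Red cells crowd the chaperones and the folding enzymes of M893, M901 and M902, while M909 is red mainly for Hsp90b1, Calr, Pdia6, Canx, Dnajb11 and Pdia3.

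In 5 of the 37 genes (13.5%) every Rbfox2 KD mouse was above every control: Hsp90b1, Calr, Dnajb11, Pdia3 and Pdia6. The same held for 3.64% of all genes tested. No member had every Rbfox2 KD mouse below every control, against 3.39% of all genes. Summed over the 17 chaperones and folding enzymes, the level was 2251 to 2431 CPM in the controls and 2594 to 3003 CPM in the Rbfox2 KD mice, so that these sums did not overlap either. With fewer mice more genes separate: without M909 the count was 15 and the share of all genes 8.61%, without control M833 it was 10 and 8.26%, and without M901 and M902 it was 6 and 7.14%.

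Among the lumenal chaperones, Calr encodes calreticulin, a calcium-binding lectin that holds glycoproteins until they fold (chr8:84841850-84846934, minus strand). It was 347, 356, 308 and 320.1 CPM in M833, M894, M896 and M898, and 444, 501, 411 and 414 CPM in M893, M901, M902 and M909. The lowest Rbfox2 KD mouse was above the highest control. The log2 fold change was 0.41 (standard error 0.071, edgeR adjusted p = 0.0837), a mean that was 33.0% higher, and it was 0.36 without M901 and M902.

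Hsp90b1 encodes GRP94, the HSP90 of the ER lumen (chr10:86690209-86705509, minus strand). Its levels were 393, 414, 362 and 368 CPM in controls and 492, 537, 443 and 517 CPM in Rbfox2 KD mice, in the same order of mice. Here M909 was the second highest of all, unlike in most other chaperone genes. The log2 fold change was 0.37 (standard error 0.065, edgeR adjusted p = 0.0837) and was 0.39 without M901 and M902.

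Hspa5 encodes BiP, the main HSP70 chaperone of the ER, which also binds the 3 sensors and keeps them inactive (chr2:34771970-34777547, plus strand). It was 231, 234, 218 and 226 CPM in controls and 293, 324, 261 and 231 CPM in Rbfox2 KD mice. M909 lay within the control range, and the other 3 Rbfox2 KD mice lay above it. The log2 fold change was 0.29 (standard error 0.088, edgeR adjusted p = 0.243) with all mice and 0.20 without M901 and M902.

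Dnajb11 encodes an HSP40 cochaperone of BiP (chr16:22857845-22879634, plus strand). The controls lay close together at 59.7, 61.2, 58.8 and 59.5 CPM, and the Rbfox2 KD mice were at 64.8, 70.1, 65.2 and 65.2 CPM. The difference was small, a log2 fold change of 0.15 (standard error 0.037, edgeR adjusted p = 0.178), yet larger than the spread within the groups. Canx encodes calnexin, the membrane-bound relative of calreticulin. It was 459, 436, 423 and 433 CPM in controls and 490.3, 504, 444 and 496 CPM in Rbfox2 KD mice, so that only M902 lay within the control range. Its log2 fold change was 0.14 (standard error 0.048, edgeR adjusted p = 0.268).

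The other 4 chaperone genes higher at the unadjusted threshold shared 1 pattern, in which M893, M901 and M902 were above all controls and M909 was not. Hyou1, the large HSP70 relative GRP170 that exchanges nucleotide on BiP, was 114, 111, 105 and 106 CPM in controls and 127, 138, 119 and 109 CPM in Rbfox2 KD mice. Manf, a secreted factor of the ER lumen that binds BiP and protects neurons, was 34.4, 33.3, 31.2 and 32.6 CPM in controls and 37.8, 42.2, 39.8 and 32.7 CPM in Rbfox2 KD mice. In both genes the M909 value was inside the range of the controls. Creld2, an ER protein with disulfide isomerase activity, was 23.2, 22.6, 20.1 and 20.8 CPM in controls and 26.4, 27.9, 26.8 and 21.3 CPM in Rbfox2 KD mice. Sdf2l1, which works with Dnajb11 on BiP, was low throughout, at 5.03, 4.93, 3.71 and 4.12 CPM in controls and 5.70, 6.37, 6.30 and 4.41 CPM in Rbfox2 KD mice. The log2 fold changes of these 4 genes were 0.18, 0.21, 0.24 and 0.36 in the order given, with edgeR adjusted p from 0.276 to 0.323. Without M901 and M902 they were 0.11, 0.10, 0.14 and 0.18, and none was past the unadjusted threshold.

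The remaining 3 chaperones lay near the controls. Dnajc3 (P58IPK, a cochaperone also known as an inhibitor of eIF2α kinases) had a log2 fold change of 0.05, Uggt1 (the enzyme that marks misfolded glycoproteins for another round with calnexin and calreticulin) of 0.01, and Dnajb9 (ERdj4, an XBP1 target that restrains IRE1) of -0.03. Their edgeR adjusted p ran from 0.737 to 0.936, and the groups overlapped in all 3.

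**Figure D2:**
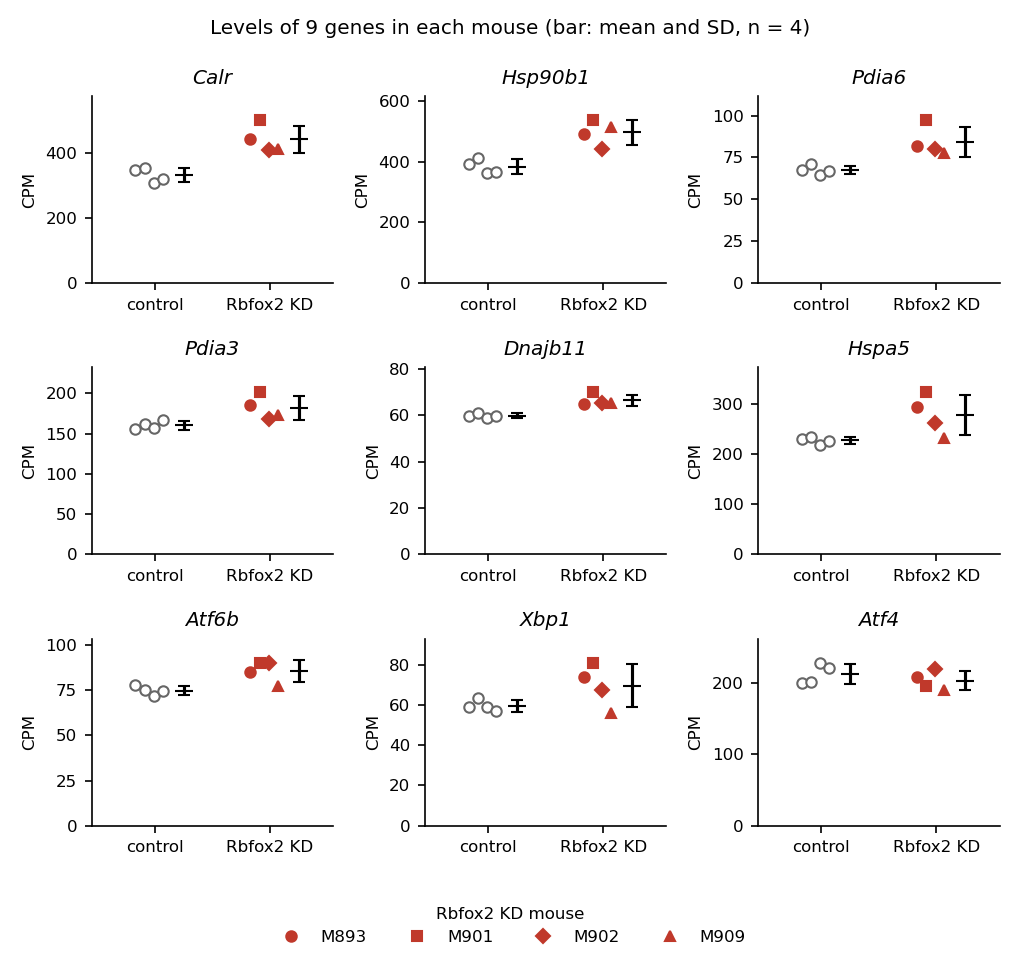
Levels in CPM (vertical axes, from 0) of 9 genes in the 4 control mice (open) and the 4 Rbfox2 KD mice (filled, 1 shape per mouse), with mean and SD. Calr, Hsp90b1, Pdia6, Pdia3 and Dnajb11 do not overlap between groups, M909 lies at the control level for Hspa5, Atf6b and Xbp1, and Atf4 overlaps throughout.

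Of the 5 folding enzymes, 3 disulfide isomerases were higher. Pdia6 (chr12:17266545-17284770, plus strand) was 67.3, 70.9, 64.7 and 67.1 CPM in controls and 81.6, 97.1, 79.8 and 77.5 CPM in Rbfox2 KD mice. All 4 Rbfox2 KD mice lay above the controls, M901 farthest. Its log2 fold change was 0.32 (standard error 0.067, edgeR adjusted p = 0.130), and 0.23 without M901 and M902.

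Pdia3 encodes ERp57, the isomerase that works with calnexin and calreticulin on glycoproteins (chr2:121413775-121438687, plus strand). It was 155, 162, 157 and 167 CPM in controls and 185, 202, 168 and 173 CPM in Rbfox2 KD mice. The gap between the groups was narrow, since M902 was 168.3 CPM and the highest control 166.8 CPM. The log2 fold change was 0.19 (standard error 0.056, edgeR adjusted p = 0.239), and 0.16 without M901 and M902. Pdia4 (ERp72) was 70.3, 61.5, 62.0 and 66.8 CPM in controls and 74.6, 78.3, 72.8 and 64.9 CPM in Rbfox2 KD mice, with M909 inside the control range. Its log2 fold change was 0.16 (edgeR adjusted p = 0.340), and 0.10 without M901 and M902.

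P4hb, the classical protein disulfide isomerase, was 191 to 203 CPM in controls and 197 to 214 CPM in Rbfox2 KD mice. Ppib, the proline isomerase cyclophilin B, was 56.6 to 60.2 CPM in controls and 57.8 to 60.8 CPM in Rbfox2 KD mice. Neither group pair separated, with log2 fold changes of 0.04 and 0.01. P4hb was the most abundant of the 5 per gene length.

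Over the 8 sensors and transcription factors the median log2 fold change was 0.05. Atf6, which lies at the head of the chaperone branch, was 143, 136, 136 and 132 CPM in controls and 142, 151, 139.9 and 139.9 CPM in Rbfox2 KD mice, with a log2 fold change of 0.07 (edgeR adjusted p = 0.460). Only M901 lay above all controls. Its relative Atf6b was 78.1, 75.1, 71.9 and 74.7 CPM in controls and 85.3, 90.3, 89.98 and 77.3 CPM in Rbfox2 KD mice. In this gene M893, M901 and M902 were above every control. For Atf6b it came to a log2 fold change of 0.19 (standard error 0.052, edgeR adjusted p = 0.214), and to 0.12 without M901 and M902.

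In the IRE1 branch, the sensor gene Ern1 was 34.4, 33.7, 31.2 and 29.6 CPM in controls and 30.0, 31.6, 34.6 and 34.9 CPM in Rbfox2 KD mice, a log2 fold change of 0.02. The groups overlapped, with M902 and M909 just above the highest control. Xbp1, whose mRNA IRE1 splices and whose promoter responds to ATF6, was 59.2, 63.7, 58.9 and 56.8 CPM in controls and 73.9, 80.9, 67.6 and 56.2 CPM in Rbfox2 KD mice. M901 was the highest of all 8 mice and M909 the lowest. For Xbp1 the log2 fold change was 0.22 (standard error 0.095, edgeR adjusted p = 0.357), and 0.12 without M901 and M902.

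In the PERK branch, Eif2ak3 was 60.1, 57.4, 56.8 and 54.6 CPM in controls and 58.6, 63.0, 63.2 and 60.0 CPM in Rbfox2 KD mice. Only M901 and M902 exceeded the controls, and the log2 fold change was 0.10 (edgeR adjusted p = 0.365), and 0.05 without these mice. Its transcription factor Atf4 was 200.3, 201, 229 and 222 CPM in controls and 209.6, 196, 220.0 and 191 CPM in Rbfox2 KD mice, a log2 fold change of -0.06 (edgeR adjusted p = 0.678). Ddit3 encodes CHOP, the transcription factor linked to cell death in prolonged ER stress. It was 35.8, 36.0, 37.1 and 36.6 CPM in controls and 39.5, 37.2, 34.3 and 34.4 CPM in Rbfox2 KD mice, and the group means of 36.4 CPM were equal to 3 digits. The annotation used here has 2 overlapping gene models under this symbol. Trib3, a pseudokinase induced by ATF4 and CHOP, was 7.20, 7.001, 8.48 and 8.34 CPM in controls and 7.71, 6.68, 6.70 and 7.07 CPM in Rbfox2 KD mice, a log2 fold change of -0.14 (edgeR adjusted p = 0.505). In Atf4, Ddit3 and Trib3 the groups overlapped and no direction was shown.

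ERAD takes misfolded proteins back to the cytosol for the proteasome. Of its 10 genes, Syvn1 and Ubqln4 were higher at the unadjusted threshold. Syvn1 encodes HRD1, the ubiquitin ligase of the retrotranslocation channel. It was 82.9, 82.4, 77.3 and 74.3 CPM in controls and 92.1, 88.6, 91.3 and 77.0 CPM in Rbfox2 KD mice, with a log2 fold change of 0.14 (edgeR adjusted p = 0.369). Ubqln4, a ubiquilin that carries substrates to the proteasome, was 88.1, 83.9, 79.9 and 80.7 CPM in controls and 98.7, 96.4, 97.2 and 85.5 CPM in Rbfox2 KD mice, with a log2 fold change of 0.18 (edgeR adjusted p = 0.221). For both genes, M893, M901 and M902 were above all controls and M909 was within their range, and neither gene was past the unadjusted threshold without M901 and M902.

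The other 8 ERAD genes had log2 fold changes from -0.09 (Herpud1) to 0.05 (Derl2). Sel1l, the partner of HRD1, was 174 to 186 CPM in controls and 181 to 194 CPM in Rbfox2 KD mice. The lectin Os9, the mannosidase-like Edem1 and Edem2, and the derlins Derl1, Derl2 and Derl3 also overlapped between the groups. Herpud1, which is induced by all 3 branches and carries ERSE-II, was 72.3, 59.7, 66.9 and 70.8 CPM in controls and 68.2, 63.2, 63.7 and 59.0 CPM in Rbfox2 KD mice. Control M894 was nearly as low as the lowest Rbfox2 KD mouse, and without M894 Herpud1 was lower in Rbfox2 KD at the unadjusted threshold. The translocon subunits Sec61a1 and Sec61b, through which proteins enter the ER, had log2 fold changes of -0.03 and 0.07. Over the 20 genes not past the unadjusted threshold, log2 fold changes ran from -0.14 to 0.07 and edgeR adjusted p from 0.460 to 0.997.

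The mice contributed unequally to the 17 higher genes. Of the 17, the number above all controls was 17 for M901, 16 each for M893 and M902, and 6 for M909. M901 was the highest of all 8 mice in 14 genes, and M909 was the lowest Rbfox2 KD mouse in 11. The mean log2(CPM + 1) of the 17 chaperones and folding enzymes relative to the control mean was highest in M901, at 0.28, followed by M893 at 0.18, M902 at 0.15 and M909 at 0.08, and it was between -0.07 and 0.05 in the 4 controls. Without M901 and M902 the median log2 fold change of these 17 genes was 0.12, against 0.18 with them. M909, the lowest, is the mouse with the surface epithelium RNA. Whether this RNA had a part in its lower values was not tested.

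**Figure D3:**
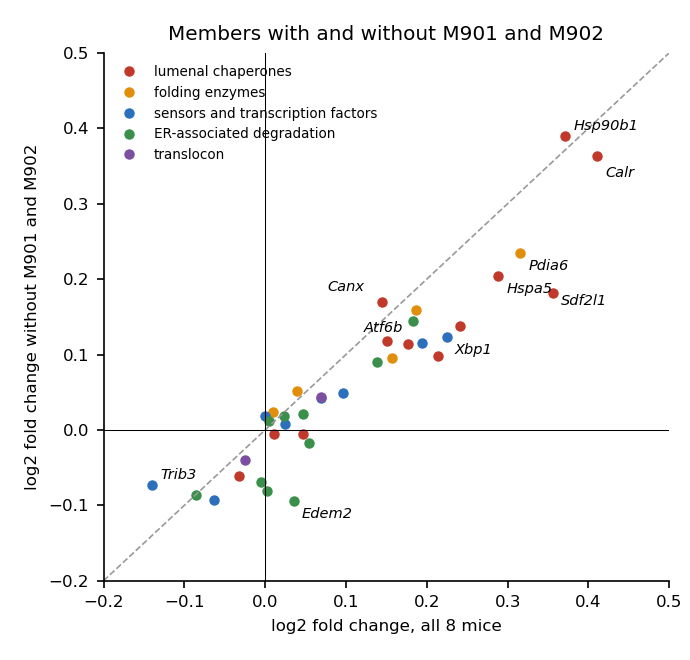
The log2 fold change of each of the 37 genes (1 point per gene, coloured by role) in all 8 mice (horizontal axis) and without M901 and M902 (vertical axis), with the line of equal values dashed. Most of the higher genes lie below the line, while Hsp90b1 and Canx lie above it, at 0.39 and 0.17 on the vertical axis.

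The 3 branches were compared by lists of known target genes. Several of these genes respond to more than 1 branch, and the lists share genes with the 37. Of all genes tested, 6.42% were higher and 6.87% lower, and 3.55% were higher without M901 and M902. Of 12 ATF6 targets, all of them among the 37, 9 were higher at the unadjusted threshold and 0 lower, with a median log2 fold change of 0.20 in all mice and 0.12 without M901 and M902, when 4 were higher. Without control M896 or without M901 the count was 5, and the share of all genes in these fits is not given. The 3 that were not higher were Sel1l, Derl3 and Herpud1, which act in degradation.

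Of 18 targets of the IRE1-XBP1 branch, 1 was higher (Syvn1) and 1 lower, with a median of -0.0018. The lower gene, Dnajc10, a reductase of ERAD, was 80.2, 77.1, 79.6 and 80.2 CPM in controls and 71.8, 73.5, 76.3 and 72.7 CPM in Rbfox2 KD mice. These groups did not overlap, and the log2 fold change was -0.11 (edgeR adjusted p = 0.239).

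Of 22 targets of the PERK-ATF4 branch, 1 was higher and 6 lower, against 6.42% and 6.87% of all genes tested. Their median was -0.04 in all mice and without M901 and M902 alike, when 4 were lower. In 4 of the 22 every Rbfox2 KD mouse was below every control, against 3.39% of all genes. In 1 every Rbfox2 KD mouse was above, against 3.64%. Slc7a11, the cystine transporter that supplies glutathione synthesis, was 14.7, 14.1, 11.7 and 18.4 CPM in controls and 9.37, 6.44, 5.30 and 10.7 CPM in Rbfox2 KD mice. Every Rbfox2 KD mouse was below every control, at a log2 fold change of -0.89 (standard error 0.213, edgeR adjusted p = 0.176). Cebpb, a transcription factor, was 4.603, 4.89, 4.53 and 5.64 CPM in controls and 3.87, 3.25, 3.41 and 3.81 CPM in Rbfox2 KD mice, at a log2 fold change of -0.45 (edgeR adjusted p = 0.143). Slc7a5, the large neutral amino acid transporter, was 56.4, 57.4, 60.9 and 65.3 CPM in controls and 50.5, 50.4, 43.4 and 55.8 CPM in Rbfox2 KD mice, at -0.26 (edgeR adjusted p = 0.228). The groups did not overlap in Cebpb or Slc7a5. The lowest values of Slc7a11 and Cebpb were those of M901 and M902. The other 3 lower genes were Psat1 of serine synthesis (-0.22), Slc3a2, the partner chain of both transporters (-0.17), and Atf5 (-0.13). The gene that was higher, Shmt2 of mitochondrial one-carbon metabolism, had a log2 fold change of 0.19 (edgeR adjusted p = 0.181). None of the branch targets passed a false discovery rate of 0.05 in this test. The mean score of this list relative to controls was lowest in M901, at -0.12, followed by M902 at -0.10, M909 at -0.06 and M893 at -0.05, while the controls ran from -0.06 to 0.07, so that M893 and M909 were near the lowest control. The difference between branches was not tested.

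**Figure D4:**
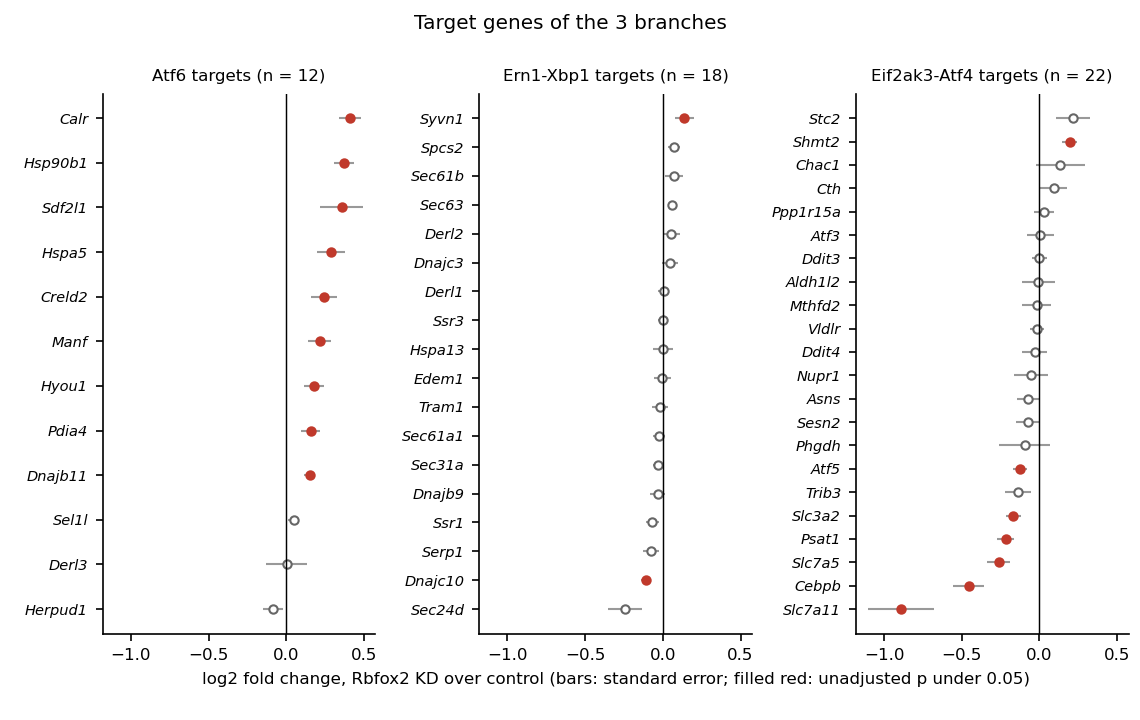
Log2 fold changes of Rbfox2 KD over control (horizontal axes) with standard errors for the target genes of the ATF6, IRE1-XBP1 and PERK-ATF4 branches (1 gene per row). Filled points mark an unadjusted p under 0.05: 9 of 12 ATF6 targets are filled on the right of 0, and 6 of 22 PERK-ATF4 targets on the left.

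Set against the promoters shown above, 8 of the 11 genes with ERSE or ERSE-II were higher at the unadjusted threshold, with a median log2 fold change of 0.15. The share of all genes tested that were higher was 6.42%. Of the 21 members with a promoter that held neither, 7 were higher, with a median of 0.04, and of the 5 without a promoter in the table, 2 were higher. The medians of genes with and without an element were 0.14 and 0.02 when M901 and M902 were left out. Then 7 members were higher, against 3.55% of all genes, and all of them but Pdia3 held an element. The 3 genes with an element that were not higher were Dnajc3, Derl3 and Herpud1. Beyond the members, 38 genes had either element, of which 18 were tested. Of these 18, 0 were higher and 2 lower, beside 6.42% and 6.87% of all genes tested. The lower genes were Acacb at a log2 fold change of -0.70 and Lrif1 at -0.17, and the median of the 18 was -0.03. These are descriptions of the sequences, and no factor binding was measured.

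Of 39 further genes of ER protein folding, 5 were higher and 5 lower, with a median of 0.0008. The shares of all genes tested were 6.42% higher and 6.87% lower. In 4 of the 39 every Rbfox2 KD mouse was above every control (Fkbp2, Txndc5, Cnpy2 and Cnpy3), against 3.64% of all genes. In 3 every Rbfox2 KD mouse was below every control, against 3.39%. Leaving out M901 and M902, 1 of the 39 was higher, against 3.55% of all genes, and 2 were lower. The largest of the higher values was Fkbp2, a proline isomerase of the ER, at 26.5, 27.2, 26.6 and 25.5 CPM in controls and 31.4, 32.6, 29.9 and 31.0 CPM in Rbfox2 KD mice. The groups lay well apart, at a log2 difference of 0.24 (standard error 0.041, edgeR adjusted p = 0.0837), and M909 was as high as the others. The disulfide isomerases Pdia5 and Txndc5 were at 0.13 and 0.11. Among the lower values, 3 further FK506-binding proline isomerases stood first: Fkbp7 at -0.59, Fkbp10 at -0.52 and Fkbp14 at -0.12. Fkbp10, which folds collagen, was 7.91, 8.95, 9.09 and 11.6 CPM in controls and 7.48, 5.70, 5.17 and 7.92 CPM in Rbfox2 KD mice. M901 and M902 had the lowest values of Fkbp10, as they did of Best2 and Slc13a4.

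Of 34 further ERAD genes tested, 2 were higher (Ubxn6 at 0.12 and Selk at 0.12) and 2 lower (March6 at -0.12 and Erlec1 at -0.11). Of 25 further genes of translocation and signal peptide removal, Sec11c, a subunit of the signal peptidase, was higher at 0.09. Of 26 further stress signalling genes, Eif2s1, which encodes eIF2α itself, was higher at 0.11, and Eif2ak2 (-0.61), Atf5 (-0.13) and Wfs1 (-0.10) were lower. Eif2ak2 encodes PKR, another eIF2α kinase, and Wfs1 encodes wolframin, an ER membrane protein. For Eif2ak2, control M896 was at 10.3 CPM and the other controls at 5.57 to 6.81 CPM. The Rbfox2 KD mice were at 4.00 to 5.29 CPM. Among all genes tested, 6.42% were higher and 6.87% lower. Without M901 and M902, 1 of the further ERAD genes was higher and 0 lower. The translocation and stress signalling lists then had 0 in either direction. The medians of these 3 lists were 0.02, 0.0013 and 0.0051, close to the 0.0016 of all genes.

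The heat shock proteins of the cytosol, which answer to another stress pathway, were compared with the ER chaperones. Of 20 such genes, 5 were higher and 0 lower, against 6.42% and 6.87% of all genes tested, with a median of 0.09. Hspa8, the constitutive HSP70, was 437, 419, 421 and 454 CPM in controls and 565, 612, 523 and 423 CPM in Rbfox2 KD mice. Hsph1, an HSP110 that exchanges nucleotide on HSP70, was 61.4, 55.6, 55.8 and 58.9 CPM in controls and 78.5, 88.5, 74.7 and 57.7 CPM in Rbfox2 KD mice. In both genes M893, M901 and M902 were far above the controls and M909 was at their level, the arrangement seen for Hspa5. The log2 fold changes were 0.29 and 0.37 (edgeR adjusted p = 0.268 and 0.231), and Chordc1, a cochaperone of HSP90, was at 0.25. Without M901 and M902, 0 of the 20 were past the unadjusted threshold.

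Levels of different genes were compared per gene length, in the deposited FPKM. In the controls, Calr was the most abundant of the 37 at 172 ± 11.0 FPKM (SD, n = 4), followed by Hsp90b1 at 140.1 ± 8.43 and Atf4 at 124 ± 9.46. The last pair were separated by less than the sum of their SDs. Canx followed at 103 ± 2.38 and Hspa5 at 87.4 ± 2.65 FPKM, while P4hb was at 79.1 ± 2.52. In the Rbfox2 KD mice Calr was at 226 ± 21.2, Hsp90b1 at 179 ± 14.6 and Hspa5 at 105 ± 15.2 FPKM. The larger SD of Hspa5 in Rbfox2 KD mice reflects its range of 231 to 324 CPM among them. At the other end, Trib3 was at 3.81 ± 0.403, Edem1 at 3.35 ± 0.117 and Derl3 at 0.682 ± 0.0285 FPKM in the controls. Derl3 carries an ERSE and is otherwise known from secretory cells.

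**Figure D5:**
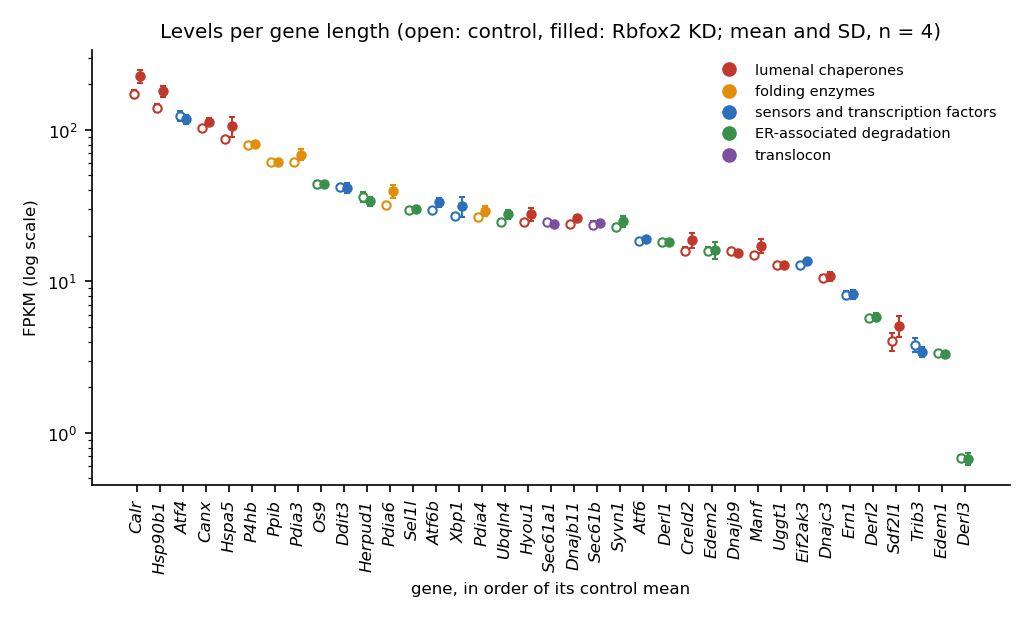
FPKM (vertical axis, log scale) of the 37 genes in order of their control mean (horizontal axis), coloured by role, with mean and SD of 4 control (open) and 4 Rbfox2 KD mice (filled). Levels in controls span from 0.682 FPKM for Derl3 to 172 FPKM for Calr, and the filled points lie visibly above the open ones for Calr, Hsp90b1, Hspa5 and Pdia6.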

How the data were processed

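Poly(A)-selected RNA of whole retina from 8 mice was sequenced as paired reads. The authors aligned the reads to mm10 with STAR and deposited raw fragment counts per gene from HTSeq; the paper names both RefSeq and Ensembl annotations, and the submitters' processing notes also list CASAVA 1.8.2 and edgeR. The authors also deposited FPKM (counts scaled to gene length and library total), used here only to compare levels between genes. Their fold changes and p-values were not used.

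Counts were filtered with filterByExpr (16797 of 17500 genes kept), TMM-scaled and tested with the quasi-likelihood test of edgeR 4.0.16 (R 4.3.3) over all 8 mice without covariates. Standard errors are the log2 fold change over the square root of F, and p-values were Benjamini-Hochberg adjusted over all genes tested. Replicates were separate mice. At these depths, 3 counts correspond to 0.0144 to 0.0189 CPM, and depth did not limit the members. No library pair agreed within sampling noise. The script was tested on simulated data. Alternatives used DESeq2 1.42.0, limma 3.58.1 and sva 3.50.0, other scalings and filters, and mice left out.

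The 37 members and all lists were chosen with earlier results of these data known, so no p-value is given for a list. All members were accounted for; values per mouse are given for members at an unadjusted p under 0.05, for sensors and for members whose groups did not overlap, and up to 3 further genes per list and direction are named. Genes were placed by symbol on GENCODE M21 (GRCm38), and promoters were taken from RefSeq (GRCm38.p6). Protein sequences were not used here.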

Additional observations from a re-analysis of the deposited data

Results flagged for a closer look

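In 4 of the 74 groups of 4 mice examined (37 genes, 2 groups each), a single mouse lay apart from the other 3 by more than Dixon's critical value for 4 values, and chance gives about 3.7. Dnajb11 was 70.14 CPM in M901 against 64.84 to 65.22 CPM in the other Rbfox2 KD mice. Atf6 was 151.2 CPM in M901, and the other Rbfox2 KD mice were at 139.9 to 141.7 CPM. Ppib was 60.84 CPM in M909 against 57.85 to 58.28 CPM in the other Rbfox2 KD mice. P4hb was 190.8 CPM in control M896 against 202.1 to 203.4 CPM in the other controls. The higher level of Dnajb11 does not rest on M901, since its log2 fold change was 0.12 without M901 and M902 and all other Rbfox2 KD mice were above the controls.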

How the results depend on the processing

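Of 629 gene values under the 17 alternatives, 41 changed sign. None of the 289 values of the 17 higher genes changed sign. All 41 belonged to 10 genes near 0. With 1 surrogate variable, Dnajc3 was -0.0069, Uggt1 -0.0172, Ern1 -0.0061, Ddit3 0.0209, Edem2 -0.0947, Derl2 -0.0235 and Derl3 -0.0705. Without M901 and M902, Dnajc3 was -0.0058, Uggt1 -0.0054, Ddit3 0.0189, Edem2 -0.0942, Derl2 -0.0174 and Derl3 -0.0808. Upper-quartile scaling put Derl1 at -0.0017 and Derl3 at -0.0045, and limma-voom put Derl3 at -0.0043. With 1 mouse left out in turn, Uggt1 ranged from -0.0121 to 0.0455, Ppib from -0.0071 to 0.0242, Ern1 from -0.0146 to 0.0649, Ddit3 from -0.0423 to 0.0258, Edem1 from -0.0480 to 0.0181, Edem2 from -0.0518 to 0.1026, Derl1 from -0.0081 to 0.0277 and Derl3 from -0.0488 to 0.0689.

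The members called at a false discovery rate of 0.05 were 7 with DESeq2 and 3 with the likelihood ratio test, and 0 under every other alternative run. The 17 members higher at the unadjusted threshold became 6 with 1 surrogate variable (Hsp90b1, Calr, Canx, Dnajb11, Pdia3 and Pdia6), 7 without M901 and M902, and 10 to 17 with 1 mouse left out. Members lower were 0 to 1, the 1 being Herpud1 without M894. Members whose groups did not overlap were 5 to 15 with 1 mouse left out. The median of the folding enzymes was 0.0883 with 1 surrogate variable, and that of the ERAD genes turned to -0.0042 there and to -0.0028 without M901 and M902. Of the ATF6 targets, 3 were higher with 1 surrogate variable, 4 without M901 and M902, and 5 to 9 with 1 mouse left out, when 0 to 1 were lower. Of the IRE1-XBP1 targets, 0 were higher with the likelihood ratio test, limma-voom, 1 surrogate variable and without M901 and M902, and 0 to 2 with 1 mouse left out, while 2 were lower with DESeq2 and 1 to 3 with 1 mouse left out. Their median was -0.0407 with 1 surrogate variable and -0.0336 without M901 and M902. Of the PERK-ATF4 targets, 1 to 2 were higher with 1 mouse left out and 3 were lower with 1 surrogate variable and 4 without M901 and M902. The causes were not tested, though leaving out mice also means fewer samples. Except without M901 and M902, the shares of all genes past the unadjusted threshold are not given for these alternatives. A general loss of calls therefore cannot be told from one particular to the members or targets. No paired analysis was possible because the mice carry no shared replicate numbers. The planned description of retention signals in the proteins was not run. The lowest member count in any mouse was 137.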
